A study of Mus musculus with 12 samples.

Results

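Of 81983 autosomal hypomethylated regions (HMRs) of mouse β cells, 3087 lay inside a protein-coding gene, away from its start, and gained methylation between postnatal day 2 (P2) and postnatal day 60 (P60). An HMR is a stretch of CpG sites that carries less methylation than the DNA around it. The HMRs called in the pools of each age and β-cell subtype were merged where they overlapped, which gave 87818 regions. Those on autosomes, under 5000 bp long and with at least 50 reads on their CpGs in each of the 4 pools were tested. The level of a region is the percent of all reads on its CpGs that were methylated, where a read counts at each CpG that it covers. The gaining regions were selected on these measured levels: the level had to be at least 25 percentage points higher at P60 than at P2 in both subtypes, the midpoint had to lie inside a GENCODE protein-coding gene of mm39, and every protein-coding transcription start had to be over 1000 bp away. The rise from P2 to P60 is therefore what defined these regions, and it is described here without a test.

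All cells came from mice of the genotype Myt1cCre; Ngn3nCre; Rosa26eYFP, InsApple, in which complementary parts of Cre are driven by Myt1 and by Ngn3, so that eYFP permanently marks the descendants of islet progenitors that expressed both factors (M+N+). Apple, driven by an insulin promoter, marks β cells. Sorted eYFP+ and eYFP- (M-N+) β cells were sequenced in 12 libraries by tagmentation-based whole-genome bisulfite sequencing, with 2 libraries per subtype at P2 and 4 per subtype at P60, and no group was given any treatment. Every library mixed sorted material of several mice, so none is a single animal. The labels name the reporter eGFP and the cell type as all islet cells, whereas the titles name sorted beta-cells. Read counts were deposited for 1 pool per subtype and age, named B1 and B2, which were taken as eYFP- and eYFP+ cells because the numbers of candidate differential regions in each direction then match those of the study. Single libraries are represented by HMR positions without read counts. Levels therefore have no replicate error, and their 95% Wilson intervals cover counting error only. The intervals treat counts at neighbouring CpGs as independent, and are too narrow where the same read covers several.

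An autosomal CpG was covered at P2 by a mean of 25.2 reads in B1 and 25.3 in B2, and at P60 by 45.7 and 45.4. Over all autosomal CpGs, the percent of methylated reads was 69.3 and 70.1 at P2 and 67.9 and 67.6 at P60, so it was lower at the later age in both pools. The promoters of the β-cell genes Pdx1, Mafa, Nkx6-1, Iapp and Slc2a2 were under 8% methylated in all 4 pools, and Ins1 went from 28.3% and 35.1% at P2 to 7.87% and 5.74% at P60. Those of Ins2 and G6pc2, which are β-cell genes too, were at 69.0% to 85.0%. The promoter of Ucn3, also in the β-cell list, was at 19.3% and 23.1% at P2 and at 14.9% and 13.9% at P60. Among other cell types, the 6 acinar promoters had medians between 65.4% and 72.0% in the 4 pools, the 4 endothelial promoters between 53.0% and 57.1%, the 3 immune promoters between 47.1% and 62.9%, and the 3 mesenchymal promoters between 34.3% and 43.4%. Of the other islet cell markers, Gcg, Ttr, Sst and Ppy were between 54.6% and 87.3% methylated. The lists were not uniform: Irx2 of α cells and Hhex of δ cells were under 2% in all pools, Bhlha15 of acinar cells was between 1.92% and 5.03%, Kdr of endothelial cells between 8.31% and 14.3%, and Csf1r of immune cells between 13.6% and 15.3%. At P2, the library of eYFP- cells labelled female held 92.5% of 254 X-linked HMRs found in P60 males and not in P60 females, and that labelled male held 13.4%. The corresponding eYFP+ libraries held 13.0% and 84.3%, so the sex labels of the P2 eYFP- libraries go against the X chromosome. All gaining regions are autosomal, and the pools combine both sexes.

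DNA methylation of CpG sites is copied when cells divide by the maintenance methyltransferase Dnmt1 and is laid down anew by Dnmt3a and Dnmt3b, while the Tet enzymes start its removal. Regions of low methylation inside introns often overlap enhancers, at which bound transcription factors keep the DNA free of methylation, and a region that is no longer used tends to regain it. β cells mature after birth, with a change from proliferation to glucose-regulated insulin secretion.

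The sequences of 6 gaining regions are shown because they are whole regions with some of the largest rises, and because they show how few and how scattered the CpGs are on which such a region rests. They are from the mm39 reference, plus strand, 5′ to 3′, and run to the last base of the last CpG, with each CpG in capitals.
Zfp703, chr8:27469555-27469663: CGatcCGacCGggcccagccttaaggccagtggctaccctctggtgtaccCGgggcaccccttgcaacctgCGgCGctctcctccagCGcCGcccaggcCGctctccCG
Cep41, chr6:30682605-30682818: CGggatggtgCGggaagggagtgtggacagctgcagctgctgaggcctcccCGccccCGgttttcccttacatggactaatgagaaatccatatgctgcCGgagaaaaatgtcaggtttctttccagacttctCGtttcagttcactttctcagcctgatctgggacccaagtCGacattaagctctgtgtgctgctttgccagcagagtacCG
Bahcc1, chr11:120131698-120131873: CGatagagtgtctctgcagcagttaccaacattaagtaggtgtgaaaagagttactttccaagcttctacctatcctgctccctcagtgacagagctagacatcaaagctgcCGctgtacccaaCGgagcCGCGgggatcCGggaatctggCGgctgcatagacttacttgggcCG
Notch1, chr2:26377776-26377995: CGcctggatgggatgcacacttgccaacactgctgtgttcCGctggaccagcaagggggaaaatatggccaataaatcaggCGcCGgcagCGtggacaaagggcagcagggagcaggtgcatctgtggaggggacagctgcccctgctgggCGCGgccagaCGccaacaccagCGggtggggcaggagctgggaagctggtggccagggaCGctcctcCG
Wwox, chr8:115331078-115331334: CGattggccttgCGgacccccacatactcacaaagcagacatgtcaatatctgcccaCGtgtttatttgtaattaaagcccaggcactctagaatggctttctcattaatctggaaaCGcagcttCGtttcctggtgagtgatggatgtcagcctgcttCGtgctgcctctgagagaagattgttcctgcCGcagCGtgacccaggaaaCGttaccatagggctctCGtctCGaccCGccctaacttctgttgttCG
Negr1, chr3:156973787-156974052: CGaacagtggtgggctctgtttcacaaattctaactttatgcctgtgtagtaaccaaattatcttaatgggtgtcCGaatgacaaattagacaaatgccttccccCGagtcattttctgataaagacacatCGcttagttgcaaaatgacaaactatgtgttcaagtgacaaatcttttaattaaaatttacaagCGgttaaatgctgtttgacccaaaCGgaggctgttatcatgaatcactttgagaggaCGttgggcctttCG

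The gaining region of Zfp703, which encodes a zinc finger repressor, holds 10 CpGs in 109 bases, whereas that of Cep41, which encodes a protein of the centrosome and cilium, holds 8 in 214 bases. Those in Bahcc1, a chromatin reader gene, and Negr1, a neuronal cell adhesion gene, hold 8 CpGs each. The regions in Notch1, a receptor of cell-to-cell signalling, and Wwox, an oxidoreductase gene, hold 11 and 13. The Zfp703 region lies in coding sequence of 1 annotated transcript and in the 3′ UTR of the longest, and the other 5 lie in introns: intron 1 of 10 in Cep41, intron 2 of 27 in Bahcc1, intron 2 of 33 in Notch1, intron 5 of 8 in Wwox and intron 6 of 6 in Negr1, counted in the longest protein-coding transcript.

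At P2 the gaining regions were low but not empty of methylation, and at P60 most had reached an intermediate level. The median level at P2 was 19.5% in pool B1 (eYFP-) and 18.3% in pool B2 (eYFP+), with an SD over regions of 7.20 and 6.02 points. At P60 the medians were 54.9% and 53.2%, with an SD of 9.95 and 9.74 points. The median rise was 34.3 points in B1 and 34.4 points in B2. The other 30440 HMRs that lay in genes and over 1000 bp from a start had medians of 12.2% and 13.1% at P2 and of 16.8% and 16.7% at P60, with median changes of 4.35 and 3.51 points. So the gaining regions were 3087 of 33527 such HMRs (9.21%), and 6.30% of all tested HMRs met the same rise, the shares that the rule itself fixes. In all 3087 regions, the P2 and P60 Wilson intervals were separate in both pools, which the required rise all but fixes at these depths. The median number of reads behind a level, summed over its CpGs, was 219 and 218 at P2 and 416 and 409 at P60. A read that covers several CpGs is counted at each, so the separate reads are fewer.

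**Figure D1:**
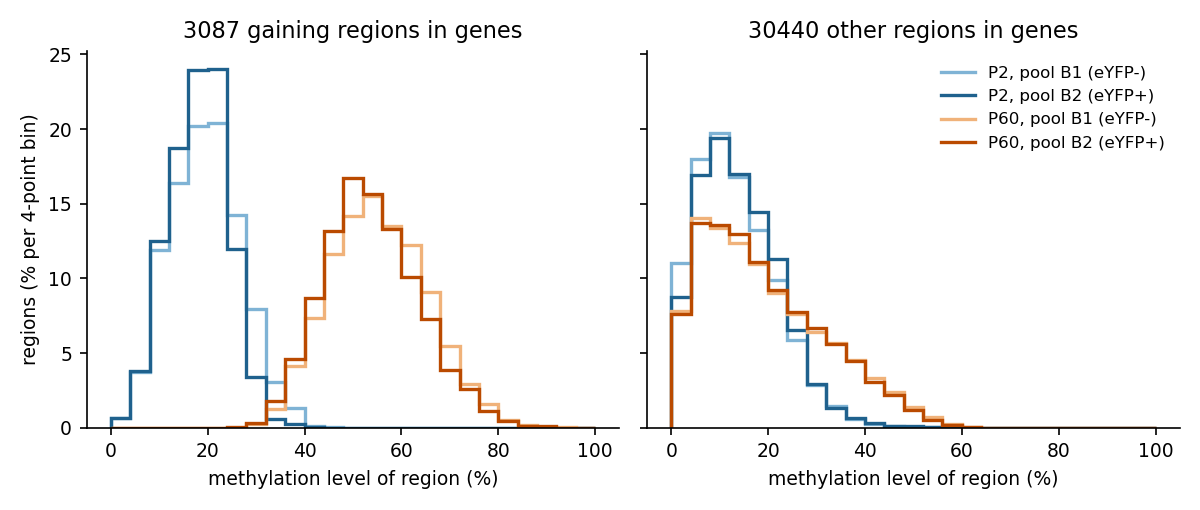
Distribution of methylation levels (x axis, percent of reads methylated in a region) as the percent of regions per 4-point bin (y axis), for the gaining regions in genes and for the other HMRs in genes, with 1 line per pool. The gaining regions centre near 19.5% and 18.3% at P2 and near 54.9% and 53.2% at P60, while the other regions have medians between 12.2% and 16.8% in all pools.

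Few regions became fully methylated. At P60, 1805 of the 3087 regions (58.5%) were above 50% in both pools, and 150 were above 70% in both. The rise was at least 50 points in both pools in 74 regions (2.40%), while in 1205 (39.0%) the smaller of the 2 rises was between 25 and 30 points. Only 160 regions had been under 10% in both pools at P2. The rises of the 2 subtypes lay within 10 points of each other in 2792 regions (90.4%), with a median absolute difference of 3.56 points.

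The flanks moved in the same direction by less. Over the 2000 bp on either side, the median level went from 74.8% to 82.1% in B1 and from 74.9% to 81.3% in B2, median changes of 6.72 and 5.81 points. Around the other HMRs in genes, the flanks changed by 2.64 and 1.63 points. In the 100 bp bins on either side of the centre, gaining regions were at 18.2% to 19.7% at P2 and at 54.1% to 55.6% at P60, and a dip in methylation was still present at P60. At 2950 bp from the centre the pools were between 69.5% and 73.4%.

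**Figure D2:**
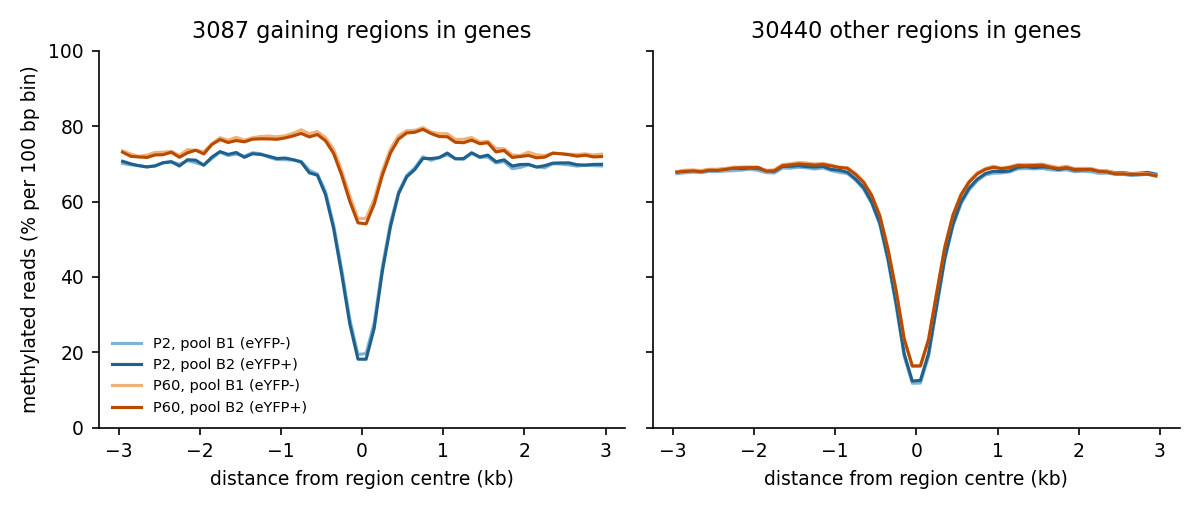
Percent of reads methylated in 100 bp bins (y axis) against distance from the region centre in kb (x axis), averaged over the gaining regions and over the other HMRs in genes, with 1 line per pool. The bins at the centre of gaining regions are at 18.2% to 19.7% at P2 and at 54.1% to 55.6% at P60, whereas those of the other regions go from 11.8% to 12.6% up to 16.4% to 16.5%.

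Nearly every CpG of a gaining region was higher at P60. The rule used the same reads, so a rise of most CpGs was largely fixed by the selection. Within a region the SD of the rise over CpGs had a median of 13.0 points. Of 30175 single CpGs in gaining regions with at least 10 reads in each pool, 97.3% were higher at P60 in both pools, 0.242% were lower in both, and 62.3% rose by 25 points or more in both. In 2482 of 3070 regions with at least 5 such CpGs (80.8%), every CpG was higher in both pools. CpGs in the centre had median rises of 35.7 and 35.4 points, and those at the edges had 35.8 and 36.4. In the Notch1 sequence above, the 11 CpGs had a median of 7.69% in B1 and 10% in B2 at P2, and of 77.6% and 81.2% at P60. In the Zfp703 sequence the medians of the 10 CpGs went from 20.4% and 10.5% to 91.6% and 90.9%.

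The 10 regions with the largest rises, taken as the smaller of the rises in the 2 pools among regions with at least 8 CpGs and 100 reads per pool, at most 1 per gene and none on chromosome 18, went from mostly unmethylated to mostly methylated. The Zfp703 region was at 21.9% in B1 and 13.3% in B2 at P2, and at 87.1% and 85.5% at P60. Its flanks of 2000 bp were low too, at 16.5% and 17.7% at P2 and 32.9% and 33.0% at P60. The region was thus not below its flanks in B1 at P2, and was above them in both pools at P60. The region in Cep41 went from 11.4% and 14.6% to 75.1% and 79.8%. The Notch1 region had the lowest P2 level of the 10 in B1, at 8.84%, with 12.8% in B2, and reached 70.8% and 71.7%. In all 3, the pools of an age lay within 10 points of each other and both ages were far apart. The region in intron 18 of 21 of Ap2b1, which encodes a subunit of the clathrin adaptor AP-2, went from 16.1% and 14.5% to 77.6% and 75.3%. The region in intron 1 of 24 of Sorbs2, an actin-associated adaptor gene, went from 11.4% and 9.82% to 75.1% and 69.2%. The remaining 5 regions, in Bahcc1, Auts2, Wwox, Negr1 and Sergef, were at 15.8% to 26.4% at P2 and at 76.4% to 86.4% at P60. Auts2 encodes a component of a Polycomb complex, and Sergef a factor named for its part in secretion. None of the 10 differed between the subtype pools at either age (Fisher's exact test, two-sided, adjusted p between 0.225 and 1.00 at P2 and between 0.320 and 1.00 at P60).

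A region in Mertk, a receptor kinase gene, had a larger rise than any of the 10 but held 5 CpGs: it went from 11.5% and 9.32% to 95.6% and 88.8%.

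**Figure D3:**
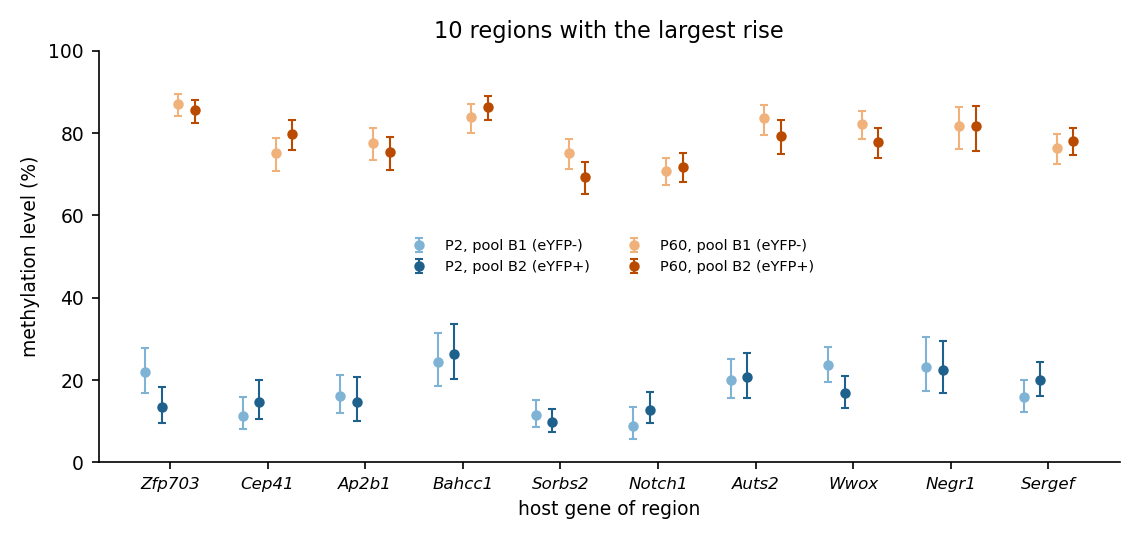
Methylation level in percent (y axis) of the 10 regions with the largest rises under these limits, named by host gene (x axis), in the 4 pools, with bars for 95% Wilson intervals that cover counting error only. Each region lies at or under 26.4% in both P2 pools and at or above 69.2% in both P60 pools.

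At the threshold the choice of regions is arbitrary. Just inside it were a region in Elmo1, with rises of 25 points in B1 and 40.8 in B2, a region in Stat5b, with 32.0 and 25, and a region in Spon1, with 25.4 and 25.0045. Just outside it were regions in Mgmt, with 24.999 and 28.5 points, in Slc13a2, with 24.993 and 29.8, and in Mmd2, with 24.988 and 31.8.

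The calls of HMRs followed the levels, from the same reads that the rule used. In the pools, 2989 gaining regions (96.8%) were called as an HMR at P2 and not at P60, 98 were called at both ages, and 0 only at P60. The 98 regions were longer, with a median of 896 bp, and an HMR of P60 covered a median of 25.4% of their length. An example is the region in Fbxo2, an F-box protein gene, which holds 125 CpGs in 3326 bp. It went from 12.1% and 10.9% to 40.8% and 40.2% and still overlapped an HMR in all 8 P60 libraries.

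In single libraries the loss of calls was seen at P60 in every library. The reads of these libraries make up the pools that the rule used, so the loss was largely fixed by the selection. An HMR overlapped 53.3% and 52.9% of the gaining regions in the P2 eYFP- libraries (replicates 1 and 2) and 66.0% and 56.7% in the P2 eYFP+ libraries. It overlapped 1.23%, 1.36%, 1.00% and 1.13% in the P60 eYFP- libraries (replicates 1 to 4) and 1.00%, 1.26%, 1.13% and 1.30% in the P60 eYFP+ libraries. No P60 library came near a P2 library, and the subtypes overlapped at P60. Libraries of P2 and of P60 shared no file name prefix, so age cannot be told apart from the set of files. At P2 both eYFP+ libraries were above both eYFP- libraries, with a mean of 61.4% ± 6.55 (SD, n = 2) against 53.1% ± 0.298 (SD, n = 2). This difference was not tested. It is not independent of the selection, which used HMR calls from the pools that these libraries make up. The other HMRs in genes were overlapped in 59.2% to 65.2% of cases at P2 and in 34.6% to 50.9% at P60, with no such order of the subtypes at P2. The order was shared by the gaining HMRs outside genes, at 67.1% and 56.7% in eYFP+ against 53.4% and 52.1% in eYFP- libraries, and by those within 1000 bp of a start, at 76.1% and 67.5% against 57.1% and 60.4%. Both of these sets were selected on the same calls and the same rise.

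**Figure D4:**
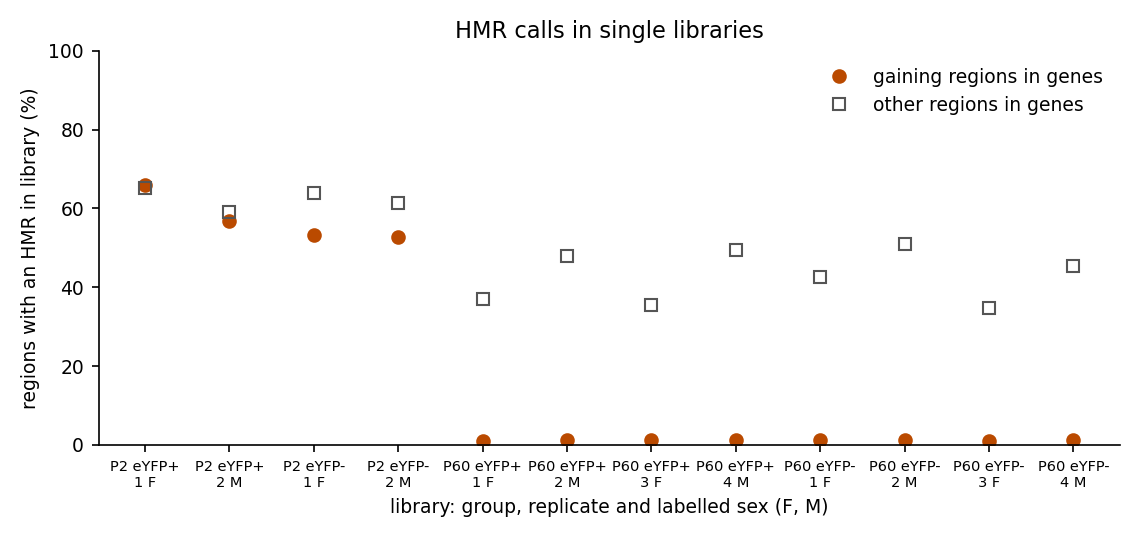
Percent of regions overlapped by an HMR (y axis) in each of the 12 libraries (x axis: group, replicate and labelled sex) for the gaining regions and for the other HMRs in genes. The gaining regions lie between 52.9% and 66.0% in the P2 libraries and between 1.00% and 1.36% in the P60 libraries, whereas the other regions lie between 34.6% and 50.9% at P60.

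Library by library, 980 gaining regions (31.7%) had an HMR in all 4 P2 libraries and in no P60 library. The share was 5.10% of the other HMRs in genes, a contrast that the rule itself favours. In 577 (18.7%) no single P2 library had a call, so that the region rests on the pooled reads, as was so in 23.6% of the other HMRs in genes, and 96 (3.11%) had a call in at least 1 P60 library. The P60 libraries from males held more HMRs in all than those from females, at 46287 to 49975 against 38064 to 44650. For the gaining regions the ranges were 1.13% to 1.36% in males and 1.00% to 1.23% in females. Within each pair of replicates of a subtype whose files share a name prefix (1 and 2, or 3 and 4), the male library was above the female library, by a mean of 0.194 points in the first and 0.146 points in the second, and the part of library depth in these calls was not tested.

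Whether the subtypes differed within these regions is a contrast that the rule did not select on directly. It is still not independent of the rule, which used the HMR calls and the levels of both pools. At P2, 2438 of the gaining regions were called as an HMR in pool B1 and 2792 in pool B2. Each region was compared between pools B1 and B2 of an age with Fisher's exact test (two-sided) over its reads, adjusted by Benjamini-Hochberg over all 81983 tested HMRs at 0.05. Such a test compares 2 pools of reads, not mice. It also treats the counts of the same read at several CpGs as independent, which makes its p-values too small by an amount not estimated. At P2, 60 gaining regions (1.94%) were lower in eYFP+ cells, where 0.740% of all tested HMRs were, and 14 (0.454%) were higher, where 1.31% of all were. At P60, 52 (1.68%) were lower in eYFP+ cells, against 1.06% of all, and 2 (0.0648%) were higher, against 0.866% of all. Among the other HMRs in genes, 0.611% were lower and 1.67% higher at P2, and 0.979% and 0.913% at P60. Most gaining regions passed at neither age. The shift was small in the typical region: the median difference, B2 minus B1, was -1.43 points at P2 and -1.45 at P60, beside 0.52 and -0.13 points for the other HMRs in genes. In the flanks of the gaining regions it was 0.07 points at P2 and -0.80 at P60. The gaining HMRs outside genes had medians of -1.82 and -1.60 points.

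Among the regions that passed at P2, the largest difference was in intron 1 of 11 of Tmtc2, a gene for a membrane protein of the endoplasmic reticulum, where 39.8% of reads were methylated in eYFP- cells and 17.4% in eYFP+ cells (adjusted p = 0.000115, Fisher's exact test). By P60 the region was at 71.9% and 66.7%. A region in intron 1 of 31 of Mical3, which encodes an actin-oxidizing enzyme, was at 47.1% and 24.8% at P2 (adjusted p = 0.0041, Fisher's exact test) and at 76.1% and 81.4% at P60. In Abca7, a lipid transporter gene, a coding region was at 44.3% and 23.7% at P2, and in Suclg2, which encodes a subunit of succinyl-CoA ligase, an intron 1 region was at 41.7% and 21.1%. These 4 regions were higher in eYFP- cells at P2, and none of them passed at P60, where the smallest adjusted p was 0.458 (Fisher's exact test). The difference between the ages was not tested.

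Among the regions that passed at P60, the largest difference was in intron 1 of 22 of Ctnnd2, which encodes δ-catenin, at 66.6% in eYFP- and 48.1% in eYFP+ cells (adjusted p = 0.000461, Fisher's exact test), after 25.5% and 22.0% at P2. A region in Ccdc141 was at 67.8% and 50%, a region in Ccdc57 at 75.7% and 58.8%, and a region in Tenm4, a teneurin gene, at 71.7% and 56.3%. These 4 were lower in eYFP+ cells. The 2 that passed in the other direction, named after their values were seen, were in Cotl1, at 56.2% and 63.3%, and Ostm1, at 39.2% and 47.7%. HMR calls of single libraries showed no region of this kind: of the gaining regions, 0 had an HMR in all 4 P60 eYFP- libraries and in no eYFP+ library, and 0 had the reverse, where 0.0220% and 0.0171% of all tested HMRs did. Since 96 gaining regions had any call at P60, few could have met this criterion.

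Inside genes, the gaining regions were mostly intronic, as were the other HMRs. The midpoint lay in an intron in 2782 regions (90.1%), in coding sequence in 131 (4.24%), in a 3′ UTR in 133 (4.31%), in a 5′ UTR in 6 and outside the protein-coding transcripts of its gene in 35. Of the other HMRs in genes, 87.8% were intronic. An intron 1 of some protein-coding transcript held 36.3% of the gaining regions and 39.3% of the others, and counted in the longest transcript alone these shares were 23.0% and 26.6%. The gaining regions lay farther from transcription starts, with a median of 29086 bp against 20027 bp, and in longer genes, with a median of 170842 bp against 120817 bp. The share of HMRs that gained went from 6.98% at 1000 to 5000 bp from a start to 11.8% beyond 100000 bp. On the mouse autosomes it was between 7.97% and 10.8%.

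Most were short regions with few CpGs. The median length was 372 bp against 446 bp for the other HMRs in genes, and the median number of CpGs was 8 in both. HMRs of up to 5 CpGs gained in 2.98% of cases, those of 6 to 8 in 12.1%, those of over 20 and up to 40 in 4.93% and those of over 40 in 1.81%. Of the 3 regions with most CpGs, the Fbxo2 region above was intronic and the other 2 lay in coding sequence. The region in exon 7 of 7 of Zfp316, a zinc finger gene, held 117 CpGs in 673 bp and went from 21.2% and 16.0% to 50.4% and 47.1%. The region in exon 21 of 49 of Cacna1a, which encodes the pore subunit of the P/Q-type calcium channel, held 86 CpGs in 521 bp and went from 27.2% and 21.7% to 58.2% and 56.8%. Zfp316 was lower in eYFP+ cells at both ages (adjusted p = 0.00123 and 0.0166, Fisher's exact test), with differences, B2 minus B1, of -5.24 and -3.32 points, and Cacna1a at P2 only (adjusted p = 0.0126 and 0.585, Fisher's exact test). Among regions with at least 8 CpGs, the highest P60 levels were in Cux2, a homeodomain gene, at 89.5% and 87.7%, and in Zfp703 and Bahcc1.

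In all, 1808 genes held a gaining region, 19.6% of the 9213 genes with an HMR that could have been one. Of these genes, 1200 held 1 and 305 held 3 or more, and 550 regions lay within 10 kb of another. The largest number, 17 of 109 tested HMRs, was in Fgfr2, a fibroblast growth factor receptor gene, but its annotated model spans 2962 kb and contains 29 other protein-coding genes, and 6 of the 17 regions also lie in another gene. One of these, inside Chst15, a chondroitin sulfotransferase gene, went from 17.8% and 29.6% to 86.6% and 89.2%. Auts2, Camta1, which encodes a calmodulin-binding transcription activator, and Glis3, a zinc finger factor gene needed for β-cell formation and insulin expression, held 14 each, of 44, 73 and 45 HMRs. Tenm2, a teneurin gene, held 13 of 42.

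Within these genes, regions that gained lay among others that changed little. The other 30 HMRs of Auts2 changed by a median of 5.55 points in B1 and 2.44 in B2, and 5 of them fell in both pools, while its 14 gaining regions reached 52.6% to 83.6% in B1 at P60. The other 31 HMRs of Glis3 changed by 7.42 and 7.21 points, while its 14 gaining regions were at 12.2% to 26.98% in B1 and 12.9% to 31.7% in B2 at P2, and at 47.4% to 76.3% and 41.7% to 73.7% at P60. In Zfpm1, a cofactor gene of GATA factors, 9 of 12 HMRs gained within a gene of 56.2 kb. Zfpm1 was singled out after its values were seen.

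**Figure D5:**
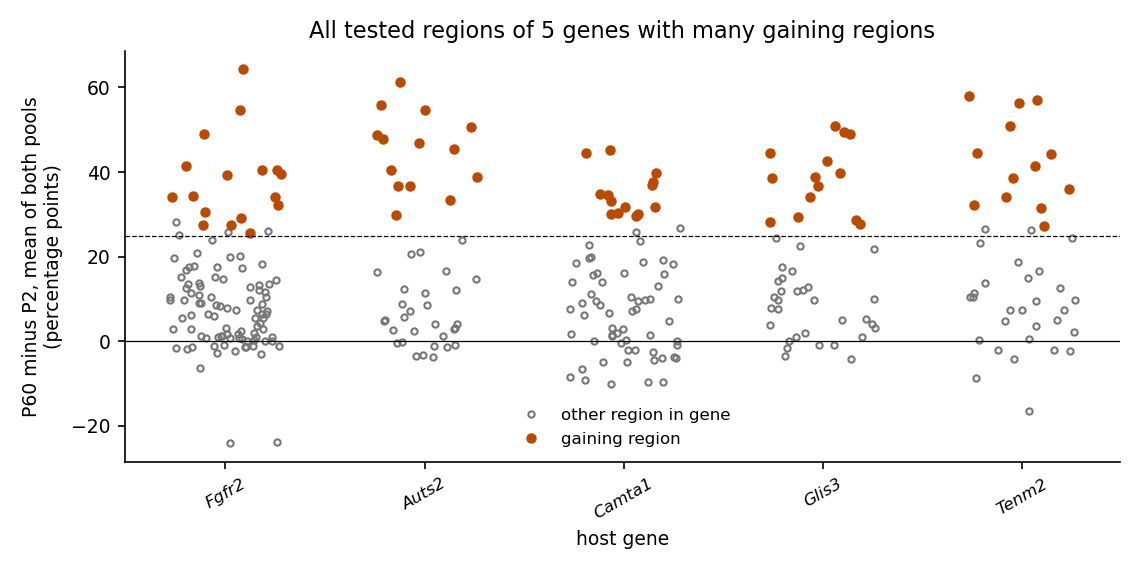
Change in methylation level from P2 to P60, as the mean of both pools in percentage points (y axis), for every tested HMR over 1000 bp from a start in Fgfr2, Auts2, Camta1, Glis3 and Tenm2 (x axis). Filled points are gaining regions, which had to rise by 25 points (dashed line) in each pool, and open points are the other HMRs of the same genes, such as the 31 of Glis3 with median changes of 7.42 and 7.21 points.

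Among genes that specify β cells, most gaining regions were in Glis3. In a list of 19 β-cell transcription factor genes, 5 of the 13 genes with a tested HMR held a gaining region, and 18 of 93 HMRs (19.4%) gained, beside 9.21% of all HMRs in genes and away from starts. Of the 18, 14 were in Glis3. The others were 1 each in Rfx6, Hnf4a, Nkx2-2 and Nr5a2, and that of Rfx6, a winged-helix factor of islet development, rose by 42.7 points or more in each pool. The Glis3 region with the largest rise, in intron 4 of 10, went from 17.1% and 19.0% to 69.6% and 68.1%. Of 20 genes of insulin synthesis and glucose sensing with a tested HMR, 1 held gaining regions: Ptprn2, which encodes a phosphatase-like protein of insulin granules, with 5 of 45. Over that list 5 of 152 HMRs (3.29%) gained and 5 fell by 25 points or more in both pools. Of all 33527 HMRs in genes and away from starts, 61 fell by as much.

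Genes of endocrine progenitors and fetal β cells held 5 gaining regions in 56 HMRs (8.93%), near the 9.21% of all HMRs in genes and away from starts. Among them were 2 in Notch1 and 1 each in Notch2 and in Prox1, a homeobox gene of early pancreas. Genes that β cells are known to silence, called disallowed genes, held 6 in 25 HMRs (24.0%), all in Smad3, the TGF-β signal transducer. The Smad3 region with the largest rise, in intron 1 of 8, went from 26.2% and 22.6% to 80.9% and 69.8%, and was lower in eYFP+ cells at P60 (adjusted p = 0.0479, Fisher's exact test). No gaining region lay in the lists of other islet hormones (4 HMRs tested), acinar and ductal genes (12) or endothelial, immune and mesenchymal markers (29). At a share of 9.21% over all such HMRs, these lists are too small for an absence to be read from them.

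Signalling genes held gaining regions at the level of receptors and of effectors. In the Wnt pathway list, 25 of 151 HMRs (16.6%) gained, beside 9.21% of all HMRs in genes and away from starts. Of its 35 genes with a tested HMR, 14 (40%) held a gaining region, beside 19.6% of all genes with a tested HMR. These gene shares do not allow for the number of HMRs per gene. Among Wnt receptors and coreceptors the genes with a gaining region were Lrp5 with 4 of 8, Lrp6, Fzd3, Fzd5, Ryk, Ror2 with 4 of 15 and Ror1 with 2 of 13. Among intracellular components they were the scaffold gene Axin2 with 2 of 4 and the transcription factor genes Tcf7l1 and Tcf7l2 with 2 each. The Ror1 region with the largest rise, in intron 4 of 8, went from 26.3% and 20.9% to 78.4% and 76.4%. In the list of growth factor and TGF-β signalling, 34 of 245 HMRs (13.9%) gained, of which 17 were under the Fgfr2 model, 6 were the Smad3 regions above and 5 were in Igf1r, the receptor of insulin-like growth factor 1. In the cell cycle list, E2f3 held 2 and Rb1 1, 3 of 32 HMRs (9.38%), near the share over all HMRs in genes and away from starts. The E2f3 region with the larger rise went from 15.6% and 19.0% to 58.7% and 58.2%.

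In genes of excitability and secretion, the share of HMRs that gained was near the 9.21% of all HMRs in genes and away from starts. The share of genes with a gaining region was 60.9% for calcium channels, 24.3% for potassium channels and 31.25% for exocytosis. It was 19.6% over all genes with a tested HMR, and these gene shares do not allow for the number of HMRs per gene. Calcium channel genes held 20 in 197 HMRs (10.2%), spread over 14 of 23 genes, and potassium channel genes 33 in 309 (10.7%), over 18 of 74. Those for pore subunits included Cacna1a and Cacna1c of calcium channels and Kcnma1 of potassium channels, and those for auxiliary calcium channel subunits included Cacna2d1 to Cacna2d4. The Cacna2d1 region with the largest rise, in intron 6 of 38, went from 15.9% and 7.63% to 68.9% and 63.5%. In Kcnq1, a voltage-gated potassium channel gene, a region in intron 10 of 15 went from 15.8% and 16.1% to 68.4% and 68.0%. Exocytosis genes held 17 in 198 (8.59%). These lay in the calcium sensor genes Syt7, Syt1 and Syt16, in the priming factor genes Cadps, with 4 of 12, and Unc13a, and in Rab27a, Rab3c, Rims2, Nsf and Doc2b. The Syt7 region, in intron 1 of 11, went from 24.7% and 13.0% to 68.1% and 68.1%.

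Axon guidance genes held 27 in 392 (6.89%), beside 9.21% of all HMRs in genes and away from starts. Of these, 7 of 20 were in Efna5, an ephrin ligand gene, and 4 of 33 in the Slit receptor gene Robo2. Among the genes that write and erase methylation, Dnmt3a held 1 of 15 and Tet3 1 of 9, together 2 of 49 HMRs (4.08%). The Tet3 region went from 25.2% and 22.8% to 73.7% and 76.9%. Clock genes held 7 in 79 (8.86%), of which 4 were in Rora, and nuclear receptor genes 13 in 115 (11.3%), of which 9 were in Esrrg, an estrogen-related receptor gene. The Esrrg region with the largest rise went from 17.6% and 19.1% to 68.8% and 73.6%.

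The promoters of the host genes had median changes near 0. Within 500 bp of the start, the median change from P2 to P60 over 1802 host genes was 0.07 points in B1 and -0.05 in B2, and 12 of them (0.666%) rose by at least 25 points in both pools. Among 7370 genes with a tested HMR and no gaining region, 34 (0.461%) did. In 70.8% of the host genes the promoter was under 10% methylated in all 4 pools, against 57.4% of the others.

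Short transcription factor motifs were counted in the 300 bp around the midpoint on both strands, as letters and not as bound sites. A GATA motif (AGATAAG) was in 8.45% of the gaining regions and in 4.87% of the other HMRs in genes, 1.74 times the share. An ONECUT motif (ATTGATT) was in 8.91% against 5.59%, 1.59 times. An HNF1 motif was in 1.46% against 1.12%, a SOX motif (AACAAAG) in 10.2% against 8.61%, and a NEUROD/NEUROG motif (CAGATGG or CAGCTGG) in 24.8% against 21.5%. A CTCF motif was in 4 gaining regions (0.130%), against 0.986% of the others. A FOXA motif (TGTTTAC) was in 8.45% against 9.41%, and a homeodomain motif (TAATTA) in 12.9% against 12.8%. For MAF (TGCTGAC), NFI, RFX, AP-1 (TGACTCA), CRE (TGACGT), TEAD (GGAATG), MYT1 (AAAGTTT), a nuclear receptor single site (AGGTCA), ETS (CCGGAAG) and an E box (CACGTG), the ratio of the shares was between 0.866 and 1.14. Over all 33527 HMRs in genes and away from starts, the GATA, ONECUT and CTCF motifs were in 5.20%, 5.90% and 0.907%. The median GC content of these windows was 48.7% in gaining regions and 47.7% in the others, and the part of base composition in these shares was not tested. In the sequences above, the Notch1 region holds the NFI motif, on the minus strand, the Wwox region holds CACGTG and TAATTA, and the Negr1 region holds TAATTA. The CRE, ETS and E box motifs contain a CpG, as does 1 of the 2 CTCF forms searched.

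The same rise was met by 1814 HMRs outside genes and over 1000 bp from a start, and by 268 within 1000 bp of one. The gaining HMRs outside genes had P2 medians of 19.8% and 18.4%, P60 medians of 53.9% and 52.6%, a median length of 398 bp and a median of 8 CpGs, all close to those inside genes. A fall of 25 points or more in both pools was met by 61 HMRs in genes and over 1000 bp from a start, beside the 3087 that rose. The 2 counts are not on equal terms. The other HMRs in genes had an upper quartile of 18.7% in B1 and 19.5% in B2 at P2, so most could not fall by 25 points.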

How the data were processed

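The authors trimmed T-WGBS reads (Trim Galore 0.6.6 and cutadapt 1.16, per the labels), aligned them with abismal (build mm39), and obtained counts of methylated and unmethylated reads per CpG and the HMRs from MethPipe; the versions of the latter are not given in the sources used here. The deposited counts of reads are 1 pool per subtype and age, and the HMR lists of the 4 pools and the 12 libraries were used as positions only. Scores of the authors' own comparison were not used, except to count candidate regions per direction for the assignment of B1 and B2. All CpG positions checked on chromosomes 1, 7 and 19 were CG in GRCm39. Genes came from GENCODE vM39 (21770 protein-coding genes).

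Levels, Wilson intervals (95%), Fisher's exact tests and their Benjamini-Hochberg adjusted p-values were computed in Python 3.11.15 with SciPy 1.17.1, pandas 2.3.3 and NumPy 2.4.6, and sequences were read with pysam 0.24.0. The test was checked on simulated counts that were drawn independently, so the check does not cover reads counted at several CpGs. The gaining regions and all gene and motif lists were chosen with earlier results of these data known. Named regions were, by rule, the 10 with the largest rises (at least 8 CpGs and 100 reads per pool, not chromosome 18), those of largest rise in the 6 genes with most regions and in each gene list, 3 on either side of the threshold, the 4 largest pool differences per age, and the 3 with most CpGs and with the highest P60 levels. Some of the genes, regions and lists that the rule covers are not reported here. Alternatives changed the read minimum, the rise, the level, the starts, the distance, the HMRs merged and the overlap, and left out each library.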

Additional observations from a re-analysis of the deposited data

How the results depend on the processing

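The number of gaining regions, 3087, was 4847 with a rise of 20 points and 1882 with 30. It stayed between 2586 and 3263 with 20 or 100 reads, the mean of CpG levels, other sets of starts, a distance of 2 kb, HMRs of at least 200 bp or HMRs of the P2 pools only, and was 3076 without the Fgfr2 model, an alternative chosen after seeing the data. At an adjusted p under 0.01 (Fisher's exact test), 17 regions were lower and 6 higher in eYFP+ cells at P2, and 9 lower and 0 higher at P60, fewer by construction. If an HMR had to cover at least 50% of a region, 50% of gaining regions had one in P2 eYFP- libraries, 0.113% in P60 eYFP+ and 0.105% in P60 eYFP- libraries. With library HMRs of at least 200 bp these were 47.2%, 0.818% and 0.769%. Counted in the longest transcript, 23.0% lay in an intron 1. Leaving out each library moved the group means to 56.7% to 66.0% (P2 eYFP+), 52.9% to 53.3% (P2 eYFP-), 1.13% to 1.23% (P60 eYFP+) and 1.12% to 1.24% (P60 eYFP-). Without replicate 3, 1 region separated the P60 subtypes, and without replicate 1, 2 or 4, 0 did. The median levels moved by less than their SD under the alternatives run.

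No paired analysis was possible because the tested levels were deposited only per pool, and the shares from single libraries come from no test. Within libraries whose files share a name prefix, the P60 share in eYFP+ minus that in eYFP- libraries was -0.162 points (replicates 1 and 2) and 0.146 points (replicates 3 and 4). Reads per region, counted at each CpG, limit the test between pools, with a median of 219 in B1 at P2. Small differences were detected in the regions with most reads, such as Zfp316.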
